A study of Mus musculus with 4 samples.

Results

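Ly6c2 Plac8 inflammatory monocytes were examined among immune cells enriched from MC38 tumours. A barcode was counted as one when its raw counts of unique molecular identifiers (UMIs) held at least 2 of Ly6c2, at least 2 of Plac8 and at least 1 of Ms4a4c. It also had to hold none of Flt3, of Cd3d, Cd3e and Cd3g or of Mki67 and Top2a, and fewer than 10 UMIs of C1qa, C1qb and C1qc together per 10000. These conditions were meant to set aside dendritic cells, T cells, dividing cells and macrophages, but only Flt3 stood for dendritic cells. Barcodes were kept from 200 detected genes upward if mitochondrial UMIs did not exceed 20%, and 791 of these 44184 were members. They numbered 94 in WT 1, 83 in WT 2, 348 in KO 1 and 266 in KO 2, and values below stand in that order. Since members were chosen by measured UMIs of these genes, the values of the genes are a description and were not tested.

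MC38 is a mouse colon adenocarcinoma line. The tumours grew in wild-type (WT) mice or in Park2-/- mice (KO), whose deletion the labels attach to the host and to no single cell type. The deleted gene acts in mitophagy, the removal of damaged mitochondria. In both groups the tumours were taken apart enzymatically, immune cells were enriched on magnetic CD45 beads, and 10x Genomics 3′ libraries were made. There were 2 libraries per genotype, and the strain, age, sex and number of animals behind a library are not given in the sources used here. All p-values therefore rest on how these libraries differ among themselves, which may be a technical spread.

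Ly6C-high monocytes leave the bone marrow through the chemokine receptor CCR2 and enter inflamed tissue and tumours. There they can turn into macrophages or antigen-presenting cells. They read interferon gamma through JAK-STAT signalling, which acts on GAS elements and induces Irf1 and families of GTPases, while type I interferon acts mainly through ISRE elements. Microbial and stress signals act on them through NF-kappaB, which drives chemokines and interleukin 1.

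The leading genes were those of classical monocytes. Beside the rule's own genes, high ratios of monocyte level to the level in all other kept barcodes belonged to Dmkn (33.6), Ifitm6 (24.0), Hp (21.9) and Slfn4 (8.24). Interferon-induced genes followed, among them Mx1, Ifi205, Slfn5, Ifi213, Isg15 and Ifit3. In counts per 1000000 UMIs (CPM), Ly6c2 stood at 1239, 1258, 1595 and 1539, Plac8 at 4513, 3321, 3394 and 3549.8 and Ms4a4c at 702, 678, 778 and 685. Ccr2 was at 1117, 868, 679 and 613 CPM, Chil3 at 394, 477, 470.2 and 438 and Lyz2, the myeloid lysozyme, at 13462, 16630.2, 12664 and 12659.7. Ptprc, the gene of CD45, was at 835, 764, 844 and 809.5 CPM. The neutrophil genes Ly6g, Camp and Ngp, the natural killer receptor gene Ncr1, the B cell gene Pax5 and the epithelial genes Krt8, Krt18 and Krt19 had no UMI in any member. Other genes of these lists did: neutrophil markers summed to 224, 1157, 286 and 208 CPM, natural killer cell markers to 66.5, 194, 752 and 675 CPM, and of the neutrophil markers Il1r2, a decoy receptor for interleukin 1, was at 43.8, 46.5, 111 and 84.8 CPM (log2 change of KO against WT 1.16 ± 0.22, adjusted p = 0.00178).

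The 4 libraries held 9239, 9369, 18324 and 10344 barcodes with 94213071 to 130466357 UMIs, and KO 1 had the most barcodes and the lowest median depth. Summed over members the depth was 616646, 515869, 2014151 and 1873900 UMIs, so KO levels rest on more counts than WT levels. Median depth per member was 6213.5, 5746, 5259 and 6549 UMIs. No member barcode occurred in more than 1 library, and pairs of libraries shared 21 to 49 of all kept barcodes. A few members carried at least 10 UMIs of genes of another cell type, namely 1, 2, 3 and 1 cells. In WT 2, 1 cell held 492 of the 501 UMIs of S100a8 and S100a9, and another held 83 of the 96 UMIs of 4 stromal genes. Leaving out these cells was an alternative chosen after seeing the data.

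The rule's thresholds cut through a continuum. Median UMIs per member were 5, 5, 6 and 7 for Ly6c2, 27, 19, 16 and 21 for Plac8 and 4, 3, 4 and 3 for Ms4a4c. Members exactly at the Ly6c2 threshold numbered 14, 12, 69 and 33. The C1q limit divided Ly6c2 Plac8 cells that had passed all other conditions, of which 64.8%, 70.9%, 57.3% and 68.6% lay under it. Just inside it, at 5 to 10 C1q UMIs per 10000, lay 7, 16, 156 and 82 members, and just outside, at 10 to 20, lay 6, 4, 79 and 33 cells. The highest member values were 9.08, 9.16, 9.99 and 9.93, and the lowest values beyond the limit were 10.3, 10.8, 10.1 and 10.3. Median C1q among members was 1.71, 2.10, 4.48 and 3.75 per 10000, so members of KO libraries sat nearer to the limit.

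Monocytes made up 1.08%, 0.942%, 2.02% and 2.80% of kept barcodes. The exact (Clopper-Pearson) 95% binomial intervals were 0.878 to 1.33%, 0.751 to 1.17%, 1.82 to 2.24% and 2.48 to 3.149%, and cover counting error only. Both KO libraries lay above both WT libraries. The mean share (± SD, n = 2 each) was 1.01 ± 0.101% for WT and 2.41 ± 0.550% for KO, a ratio of 2.38. A two-sided exact permutation test gave p = 0.333, the smallest value that 2 libraries against 2 can give. With C1q below 5 per 10000, the shares were 1.00%, 0.760%, 1.12% and 1.94%, a ratio of 1.73, and the intervals of WT 1 and KO 1 overlapped. Among barcodes without Cd3 UMIs the ratio was 2.80, and after thinning to 3000 UMIs it was 2.81. Thinning left out the 1798, 1188, 5404 and 2579 kept barcodes with fewer UMIs.

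**Figure D1:**
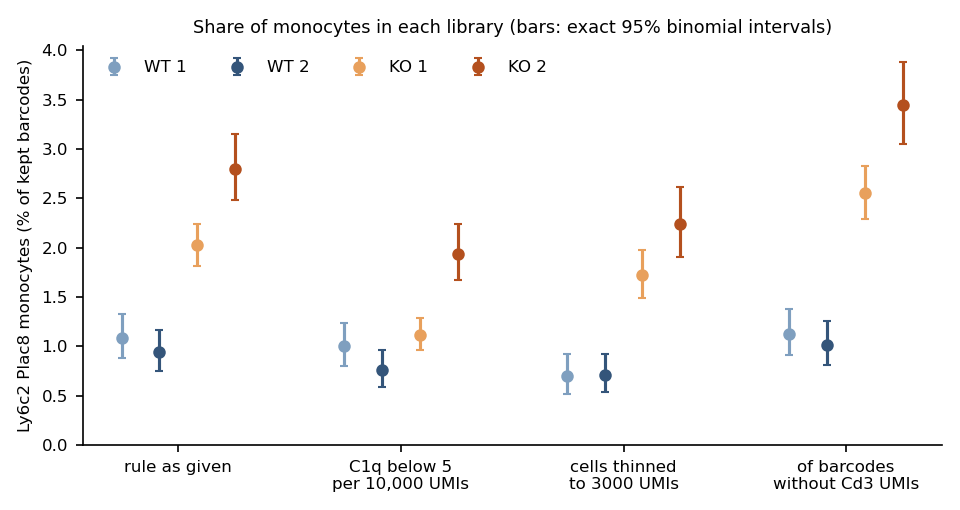
Share of kept barcodes that met the monocyte rule (vertical axis, %) in each of the 4 libraries (points) with exact 95% binomial intervals (bars), under the rule as given, a lower C1q limit, thinning to 3000 UMIs and a denominator without Cd3 UMIs. KO points lie above WT points in each setting, by the least where C1q is limited to 5 per 10000 (KO 1 at 1.12% beside WT 1 at 1.00%).

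To compare the genotypes, UMIs were summed over the members of each library and tested by quasi-likelihood in edgeR, with p-values adjusted by Benjamini-Hochberg and a threshold of 0.05. Changes are given as log2 change ± standard error, with 2 libraries per genotype. This error was worked back from the test, as the size of the log2 change over the square root of the F statistic. It therefore does not by itself give the adjusted p. Of 7513 genes tested, 162 rose in KO monocytes (2.16%) and 48 fell (0.639%), together 2.8%. The median log2 change over all genes tested was -0.01. The CPM of the genotypes did not overlap for 45.4% of the genes tested. DESeq2 called 79 rises and 9 falls, and thinning to 3000 UMIs, which leaves out shallower cells and gives 48, 54, 203 and 155 members, gave 40 rises and 9 falls. Without WT 2, 236 genes rose and 81 fell.

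Among the 12 largest rises were secreted factors, a chemoattractant receptor and interferon-induced genes. Inhba (chr13:16011851-16031621, mm10), which encodes a subunit of activin A, was at 66.5, 69.8, 747 and 822 CPM. Both KO libraries stood more than 10 times above both WT libraries, and the log2 change was 3.56 ± 0.16, adjusted p = 2.21e-15. Ccl17, a ligand of the T cell chemokine receptor CCR4, was at 6.49, 7.75, 69.0 and 121 CPM from 4, 4, 139 and 227 UMIs (log2 change 3.76 ± 0.47, adjusted p = 0.000855). Leaving out the cell with the most Ccl17 UMIs gave 3.30, 5.96, 48.8 and 87.9 CPM, so the order of the libraries did not rest on 1 cell each. Its call was lost without WT 1, without WT 2, under looser UMI thresholds and under 3 filters on cells, at an adjusted p of up to 0.675. Iigp1, an interferon-inducible GTPase, was at 16.2, 33.0, 148 and 152 CPM (log2 change 2.68 ± 0.24, adjusted p = 4.12e-08). Socs1, an inhibitor of cytokine receptor signalling, was at 14.6, 27.1, 93.3 and 103 CPM (log2 change 2.30 ± 0.27, adjusted p = 2.49e-06). Fpr2, a formyl peptide receptor, was at 22.7, 11.6, 90.4 and 68.3 CPM (log2 change 2.21 ± 0.30, adjusted p = 3.11e-05).

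Cxcl1, which attracts neutrophils through CXCR2, was at 32.4, 13.6, 90.9 and 122 CPM (log2 change 2.20 ± 0.28, adjusted p = 5.59e-05). Without the top cell of each library it stood at 8.22, 7.96, 75.1 and 71.4 CPM, and the genotypes still did not overlap. Its call was lost under looser and under stricter UMI thresholds and without the highest Scrublet scores, at an adjusted p of up to 0.482. Tnf was at 12.97, 9.69, 41.2 and 45.4 CPM (log2 change 1.94 ± 0.35, adjusted p = 0.000838), a low level in every library. Upp1, a uridine phosphorylase, was at 68.1, 93.0, 296 and 269 CPM (log2 change 1.86 ± 0.17, adjusted p = 5.84e-08). The other 4 of the 12 had fewer counts: Slc4a11, a membrane transporter (log2 change 3.10 ± 0.64), Procr, the protein C receptor (2.62 ± 0.55), P2ry10, a G protein-coupled receptor (1.96 ± 0.43), and Mmp25, a membrane-anchored metalloproteinase (1.80 ± 0.45). Their KO levels were between 16.0 and 29.3 CPM. Without KO 1 the calls of Procr and Mmp25 were lost, and that of Mmp25 also without WT 2 or KO 2.

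Among the 12 largest falls, Cx3cr1 and Tppp3 rested on the most counts. Cx3cr1, the fractalkine receptor gene whose level is high in nonclassical monocytes, was at 92.4, 105, 26.3 and 39.0 CPM (log2 change -1.56 ± 0.22, adjusted p = 5.59e-05). Tppp3, of a tubulin-binding protein family, was at 219, 159, 62.1 and 74.7 CPM (log2 change -1.44 ± 0.17, adjusted p = 3.29e-06). Both KO libraries lay below both WT libraries for each gene, which the choice of the 12 falls required. The call of Tppp3 was lost under stricter UMI thresholds, at an adjusted p of 0.317. Adgre4, an adhesion receptor of nonclassical monocytes, was at 37.3, 17.4, 6.45 and 7.47 CPM (log2 change -1.96 ± 0.41), and its call was lost without WT 1. Gfer, a sulfhydryl oxidase of mitochondria, was at 34.1, 44.6, 14.4 and 12.8 CPM (log2 change -1.47 ± 0.31), and its call was lost without WT 2. Msi2, an RNA-binding protein gene, was at 22.7, 34.9, 7.94 and 11.2 CPM (log2 change -1.52 ± 0.38), and its call was lost without WT 2 or KO 1. The remaining falls were Siglece (-1.77 ± 0.47), an inhibitory receptor for sialic acids, Htra3 (-1.74 ± 0.40), Nxpe4 (-1.82 ± 0.45) and Selenbp1 (-1.31 ± 0.35). Htra3 and Selenbp1 lost their calls without WT 2, Selenbp1 also without KO 1, and Siglece and Nxpe4 without WT 1, KO 1 or KO 2.

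G0s2 and Gpnmb had most of their WT 2 UMIs in single cells. G0s2, an inhibitor of the lipase ATGL, was at 21.1, 48.5, 6.45 and 2.13 CPM (log2 change -2.89 ± 0.50, adjusted p = 0.00188), but 24 of 25 UMIs of WT 2 lay in 1 cell. Without the top cell of each library G0s2 stood at 9.79, 1.97, 1.49 and 1.07 CPM, and it was too low to be tested once cells with at least 10 UMIs of other types were left out. Its call was kept on leaving out each library in turn. Gpnmb, a macrophage surface glycoprotein gene, was at 21.1, 46.5, 4.96 and 9.61 CPM (log2 change -2.14 ± 0.43, adjusted p = 0.0045), with 11 of 13 and 18 of 24 UMIs of the WT libraries in 1 cell each, and its call was lost without WT 2. Prtn3, a granule protease of myeloid progenitors, was at 35.7, 9.69, 3.97 and 4.803 CPM (log2 change -2.37 ± 0.52, adjusted p = 0.00849) and was no longer called when WT 1, KO 1 or KO 2 was left out.

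**Figure D2:**
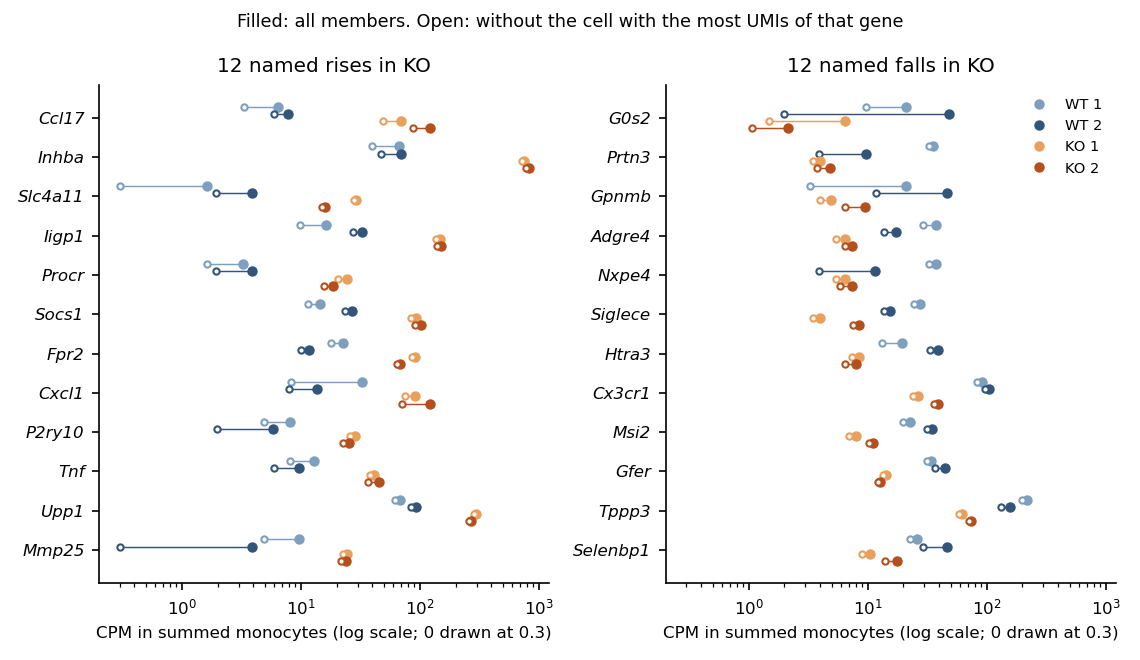
CPM in summed monocytes (horizontal log axis, 0 drawn at 0.3) of the 12 named rises and the 12 named falls in each library (colours). Filled points take all members and open points leave out the cell with the most UMIs of that gene: the KO points of Inhba barely move, while G0s2 in WT 2 drops from 48.5 to 1.97 CPM.

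Genes induced by interferon gamma rose together. Of 27 genes of that list tested, 14 rose and none fell, beside 2.16% and 0.639% of all genes, and their median log2 change was 1.15. This list and those below were chosen with earlier results of these data known. Their counts beside the shares of all genes are therefore a description and no test of the lists. All 27 changes were positive. Irf1, an interferon-induced transcription factor gene, was at 79.5, 101, 211 and 193 CPM (log2 change 1.21 ± 0.17, adjusted p = 4.81e-05). Ly6i, a surface antigen gene near Ly6c2, was at 152, 186, 539 and 414 CPM (log2 change 1.54 ± 0.16, adjusted p = 1.41e-06). The GTPase genes Gbp4 and Igtp were at 50.3, 56.2, 139 and 119.5 CPM and at 58.4, 77.5, 146 and 146 CPM (log2 changes 1.32 ± 0.20 and 1.15 ± 0.18). Irf8, which also directs monocyte development, was at 165, 202, 297 and 351 CPM (log2 change 0.86 ± 0.15, adjusted p = 0.000645). Irgm1 (0.93 ± 0.19), Gbp7 (0.75 ± 0.16), Batf2 (1.22 ± 0.28), Serpina3g (1.06 ± 0.27) and Gbp8 (1.40 ± 0.37) rose too, on the same log2 scale. Reads of guanylate-binding protein genes can be split among near-identical copies, so their single values are uncertain. Calls lost on leaving out 1 library were those of Gbp8, Batf2 and Irgm1 without WT 1, of Gbp8 and Serpina3g without WT 2, of Gbp8 and Gbp7 without KO 1 and of Serpina3g without KO 2.

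Some of the most abundant genes of the list did not pass, and the WT libraries differed from each other in them. Cxcl10, a chemokine for activated T cells, was at 339, 1229, 1458 and 1739 CPM, Cxcl9 at 114, 547, 1159.8 and 1117 CPM and Ly6a at 394, 841, 1822 and 1417 CPM. WT 1 was the lowest library for each and WT 2 lay between it and KO. Nos2 and Ccl5 are not on this list and did not pass either. Nos2, which encodes the inducible nitric oxide synthase, was at 9.73, 54.3, 135 and 179.8 CPM (log2 change 2.41 ± 0.73, adjusted p = 0.39). In WT 2, 18 of its 28 UMIs lay in 1 cell. Ccl5 was at 29.2, 112, 613 and 551 CPM (log2 change 3.13 ± 0.66, adjusted p = 0.299). On leaving out 1 library in turn, the log2 change ranged from 1.08 to 3.39 for Cxcl9 and from 0.964 to 2.10 for Ly6a. It ranged from 0.397 to 2.30 for Cxcl10, from 1.55 to 4.06 for Nos2 and from 2.39 to 4.38 for Ccl5. Summed over the interferon gamma list, members stood at 3355, 5835, 9658 and 9229 CPM.

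Ifng itself had 0, 0, 5 and 7 UMIs among members, and over all kept barcodes it stood at 1.09, 3.13, 43.4 and 36.9 CPM. Markers of natural killer cells moved with genotype inside the members: the 13 genes summed to 66.5, 194, 752 and 675 CPM, of which Ccl5 gave 29.2, 112, 613 and 551, with Ncr1 at 0. The 15 T cell genes summed to 9.73, 13.6, 60.6 and 33.6 CPM, and none of them reached the level needed for testing. Nkg7, a cytotoxic granule gene, had no UMI in WT members and 25 and 23 UMIs in KO 1 and KO 2, and rose (adjusted p = 0.00382), as did Gzma, granzyme A, at 1.62, 0, 14.9 and 9.07 CPM (3.67 ± 0.93, adjusted p = 0.0249). Without the 26, 20, 116 and 79 members that held a UMI of Trac, Trbc1, Trbc2, Cd79a, Ncr1, Siglech, Ly6g or Csf3r, 10 interferon gamma genes rose. Leaving out the cells with at least 10 UMIs of another type left 12. The part of these markers in the rises was not tested beyond these counts. DESeq2 called 8 of the list and the thinned counts 7, and leaving out 1 library gave 13 to 19.

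To show what the start sites of these genes hold, promoter sequences were taken from RefSeq (GRCm38.p6), 250 bases up to the base before the start, and searched on both strands for 3 motifs. The ISRE-like motif was GAAA, any 2 bases and GAAA, the GAS-like motif was TTCNNNGAA, and the kappaB-like motif was GGG, any 2 bases and TTTCC. Of the 14 rises, 8 had an entry, and Iigp1, Ly6i, Gbp8, Gbp4 and Batf2 were among those missing from the table. The ISRE-like motif was found in 4 of the 8 (Gbp7, Igtp, Irgm1 and Socs1), beside 3.46% of 27025 gene symbols, and TTCNNNGAA in 5 (Gbp7, Igtp, Irf1, Irf8 and Serpina3g), beside 8.13%. Of the 12 largest rises, 10 had an entry, and 1 held the ISRE-like, 2 the GAS-like and 1 the kappaB-like motif. Of the 12 largest falls, 11 had an entry and no match was found in them. Shown are Irf1 (chr11:53769764-53770013, plus strand), Socs1 (chr16:10785537-10785786, minus strand), Igtp (chr11:58199306-58199555, plus strand) and Irgm1 (chr11:48871421-48871670, minus strand), genes with UMIs in each library that rose and hold a match. Capitals mark the matches. That of Irf1 is TTCNNNGAA at -90 to -82 from the start. Socs1 holds 2 overlapping ISRE-like matches from -83 to -68, and Irgm1 2 from -30 to -15. Igtp has TTCNNNGAA at -45 to -37 and the ISRE-like motif at -34 to -25.
Irf1: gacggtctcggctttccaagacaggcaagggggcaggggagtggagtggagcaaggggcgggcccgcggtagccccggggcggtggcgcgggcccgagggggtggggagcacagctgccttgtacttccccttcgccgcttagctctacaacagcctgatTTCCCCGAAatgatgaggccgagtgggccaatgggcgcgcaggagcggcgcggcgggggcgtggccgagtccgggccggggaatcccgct
Socs1: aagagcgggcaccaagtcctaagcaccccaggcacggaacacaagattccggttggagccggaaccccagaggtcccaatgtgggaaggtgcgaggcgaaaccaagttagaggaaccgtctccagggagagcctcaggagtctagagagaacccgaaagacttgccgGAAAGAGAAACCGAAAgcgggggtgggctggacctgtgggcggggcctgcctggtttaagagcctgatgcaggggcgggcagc
Igtp: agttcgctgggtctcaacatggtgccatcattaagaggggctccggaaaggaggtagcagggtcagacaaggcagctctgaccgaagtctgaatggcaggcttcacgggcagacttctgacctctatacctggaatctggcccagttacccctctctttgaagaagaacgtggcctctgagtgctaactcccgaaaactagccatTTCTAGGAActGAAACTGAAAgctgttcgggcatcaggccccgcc
Irgm1: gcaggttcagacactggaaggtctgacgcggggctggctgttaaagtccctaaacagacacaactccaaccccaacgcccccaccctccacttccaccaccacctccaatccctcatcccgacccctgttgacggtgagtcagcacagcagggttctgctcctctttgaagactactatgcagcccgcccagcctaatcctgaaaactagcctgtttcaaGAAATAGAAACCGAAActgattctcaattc

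**Figure D3:**
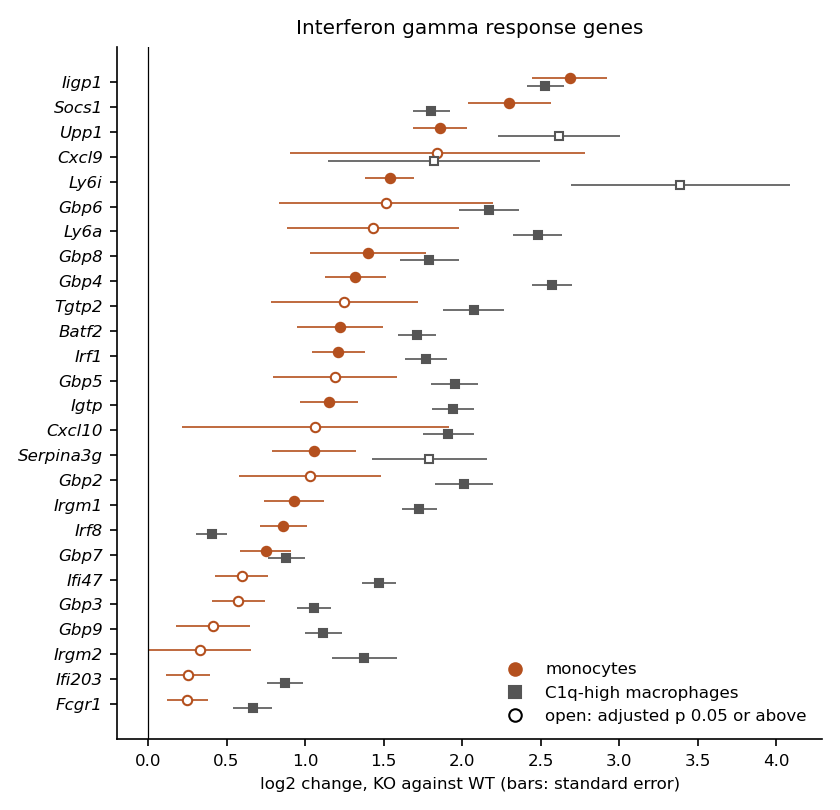
Log2 change of KO against WT (horizontal axis, bars are standard errors) of 26 of the 27 interferon gamma genes tested in monocytes (circles) and in C1q-high macrophages of the same libraries (squares); open symbols have an adjusted p of 0.05 or above. All circles lie right of 0, from Iigp1 at 2.68 down to Fcgr1 at 0.25.

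Few genes of the type I interferon response passed the threshold, although most of their changes were positive. Of the 38 genes tested, 32 had a positive change. By edgeR 15 had an unadjusted p under 0.05, all higher in KO. The share of all genes with such a p is not given here, so this count has no background to stand beside. Of 38 tested, beside 2.16% of all genes, 1 rose (Phf11d, 27.6, 46.5, 62.1 and 76.8 CPM, log2 change 0.97 ± 0.25, adjusted p = 0.0314) and none fell, and the median log2 change was 0.40. Without the filter on low counts, where more genes rose in total too, 7 rose. With stricter UMI thresholds, where fewer genes rose in total, 6 did. Isg15, a ubiquitin-like modifier, was at 375, 671, 828 and 766 CPM and Ifi27l2a at 2024, 1683, 2122 and 1879 CPM. Of 18 receptor and signalling genes of the interferon pathways, 3 rose, beside 2.16% of all genes. Among them were Socs1 and Socs3, a further inhibitor (384, 428, 556 and 575 CPM, log2 change 0.51 ± 0.13). The receptor genes Ifngr1 and Ifnar1 were at 329, 300.5, 252 and 225 CPM and at 98.9, 98.9, 109 and 97.7 CPM, and neither passed. With 1 library left out, the calls lost were those of Phf11d and Socs3 without WT 1, of Socs3 without KO 1 and of Phf11d and Socs3 without KO 2.

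Of 23 genes of antigen presentation through MHC class I tested, 8 rose and none fell, beside 2.16% and 0.639% of all genes, with a median log2 change of 0.42. The heavy chains H2-K1 and H2-D1 were at 1205, 1396, 2061 and 1815 CPM and at 2270.3, 2365, 3115 and 3109 CPM (log2 changes 0.61 ± 0.12, adjusted p = 0.00192 and 0.46 ± 0.11, adjusted p = 0.0111). B2m, their light chain, was at 2940.1, 3336, 4371 and 3803 CPM (log2 change 0.42 ± 0.11, adjusted p = 0.038). H2-Q7 (1.78 ± 0.27), H2-Q6 (1.70 ± 0.28) and H2-Q4 (0.95 ± 0.20) also rose, but are near-identical copies whose reads may be split. The immunoproteasome gene Psmb8 and the proteasome activator gene Psme2 rose by 0.43 ± 0.12 and 0.45 ± 0.13 on the log2 scale. The count rested on KO 1: without it 2 of the class I genes rose, and after thinning 1. Leaving out 1 library ended the calls of H2-Q7, B2m, Psmb8 and Psme2 without WT 1, of H2-Q7 without WT 2, of H2-K1, H2-D1, H2-Q4, B2m, Psmb8 and Psme2 without KO 1 and of H2-D1, Psmb8 and Psme2 without KO 2.

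Of 13 class II genes tested none rose or fell by edgeR, beside 2.16% and 0.639% of all genes. Of them, 5 had an unadjusted p under 0.05, all higher in KO, with no share of all genes to set beside it. The median log2 change was 0.29. DESeq2 called none. With C1q below 5 per 10000, 5 class II genes rose, and 4 rose without cells holding a UMI of another type's marker, without WT 2 or without the filter. Without KO 2, 1 rose, and with a replicate block 2. H2-Ab1 was at 3464, 3995, 5072 and 4454 CPM (log2 change 0.39 ± 0.11, adjusted p = 0.058), Cd74, the invariant chain, at 9154, 9859, 12421 and 11006 CPM (0.34 ± 0.10, adjusted p = 0.0808) and Ciita, the class II transactivator, at 128, 67.8, 108 and 118 CPM (0.22 ± 0.20, adjusted p = 0.722). Members varied widely in class II within each library. The 10th and 90th percentiles of summed class II UMIs were 38.5 and 606 per 10000 in WT 1, 42.8 and 686 in WT 2, 48.6 and 691 in KO 1 and 45.1 and 660 in KO 2. Of 7 co-stimulatory ligand genes, Cd86 (136, 173, 323 and 289 CPM, log2 change 1.03 ± 0.15, adjusted p = 9.28e-05) and Cd40 (32.4, 58.2, 73.5 and 92.3 CPM, 0.94 ± 0.24, adjusted p = 0.0333) rose, beside 2.16% of all genes. The call of Cd40 was lost without WT 1 or KO 2, and Cd80 was at 87.6, 50.4, 88.9 and 79.0 CPM and did not pass.

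Chemokine genes were among the groups with the most rises. Of 19 ligands tested, 7 rose and none fell, beside 2.16% and 0.639% of all genes, with a median log2 change of 1.07. Without WT 2, 11 rose and 1 fell, without KO 2 7 rose and 1 fell, and with looser UMI thresholds or after thinning 4 rose. Ccl4 and Ccl3, inflammatory chemokines, were at 331, 240.4, 657 and 905 CPM and at 102, 184, 362 and 299 CPM (log2 changes 1.48 ± 0.17, adjusted p = 8.33e-05 and 1.27 ± 0.25, adjusted p = 0.0363). In WT 1, 110 of 204 Ccl4 UMIs lay in 1 cell. Cxcl2, a CXCR2 ligand, was at 1706, 1213, 2543 and 2390.2 CPM (log2 change 0.80 ± 0.13, adjusted p = 0.000392), and Cxcl16, the ligand of CXCR6, at 284, 329.5, 595 and 545 CPM (0.93 ± 0.13, adjusted p = 5.56e-05). Pf4, platelet factor 4, which macrophages also make, was at 69.7, 129.9, 361 and 298 CPM (log2 change 1.78 ± 0.23, adjusted p = 0.00147), and Ccl8, a monocyte chemoattractant, at 82.7, 44.6, 176 and 123 CPM (1.25 ± 0.26, adjusted p = 0.0249). The Pf4 call was lost with C1q below 5 per 10000 and after thinning, with a log2 change of at least 1.10 in each alternative. Ccl2, a ligand of CCR2, was at 1223, 545, 489 and 949 CPM and Ccl6 at 1149.8, 843, 640.0 and 875 CPM, and neither passed. Cxcl2 lost its call once the cells with 10 UMIs of another type were left out. 

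The promoter of Cxcl1 held the kappaB-like motif, present in 1.65% of symbols, in 2 places, at -89 to -80 on the minus strand and at -71 to -62 on the plus strand. The sequence (chr5:90890995-90891244, plus strand, RefSeq, GRCm38.p6) is shown because it was the 1 match to this motif among the 10 largest rises with an entry, with the matches in capitals.
Cxcl1: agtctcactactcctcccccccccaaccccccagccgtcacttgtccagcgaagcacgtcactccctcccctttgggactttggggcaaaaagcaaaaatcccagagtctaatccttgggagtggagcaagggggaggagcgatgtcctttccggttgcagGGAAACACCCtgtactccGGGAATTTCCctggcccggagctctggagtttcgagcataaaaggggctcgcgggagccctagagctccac

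Cytokine and inflammasome genes followed the chemokines. Of 17 tested, 8 rose and none fell, beside 2.16% and 0.639% of all genes, with a median log2 change of 0.81. Il1b, one of the most abundant cytokine genes of these cells, was at 3928, 2718, 6803 and 5828 CPM (log2 change 0.97 ± 0.14, adjusted p = 0.00126). Both KO libraries exceeded both WT libraries, and its call was lost with scaling to total counts. Il1rn, the interleukin 1 receptor antagonist, was at 165, 254, 615 and 619 CPM (log2 change 1.60 ± 0.16, adjusted p = 3.29e-06). Il1a was at 27.6, 38.8, 70.5 and 83.2 CPM (1.27 ± 0.24, adjusted p = 0.00181) and Il18bp, the interleukin 18 binding protein, at 11.4, 34.9, 69.0 and 57.6 CPM (1.55 ± 0.32, adjusted p = 0.00843). Il27, Casp4 and Osm passed narrowly, at log2 changes of 1.55 ± 0.43, 0.81 ± 0.22 and 0.43 ± 0.12. Total counts left 4 rises and DESeq2 2 of this list. Calls lost on leaving out 1 library were those of Il18bp, Il27, Casp4 and Osm without WT 1, of Il27 without WT 2, of Il27, Casp4 and Osm without KO 1 and of Il27, Casp4 and Osm without KO 2.

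Of 21 genes linked to suppression by myeloid cells tested, 4 rose and none fell, beside 2.16% and 0.639% of all genes, and the median log2 change was 0.25. Without WT 2 or without the filter 7 rose, and after thinning 2. Cd274, which encodes PD-L1, was at 105, 110.5, 291 and 302 CPM (log2 change 1.496 ± 0.15, adjusted p = 3.08e-07). Vegfa was at 183, 128, 292 and 264 CPM (0.87 ± 0.16), and the lectin receptors Clec4d and Clec4e at 188, 229, 410.1 and 335 CPM and at 251, 279, 369 and 351 CPM (0.88 ± 0.15 and 0.48 ± 0.13). Arg1, the arginase of suppressive myeloid cells, was at 1557, 915, 1505 and 1421 CPM and did not pass. Among 17 pattern recognition receptors 3 rose, beside 2.16% of all genes: Clec4n, or Dectin-2 (302, 333, 812 and 635 CPM, log2 change 1.23 ± 0.14, adjusted p = 3.13e-06), Clec7a, or Dectin-1 (809, 793, 1233 and 1409 CPM, 0.76 ± 0.12, adjusted p = 0.000167), and Cd14 (1395, 1289, 2111 and 1823 CPM, 0.59 ± 0.11, adjusted p = 0.00191). Of 13 genes of a list of Fc receptors and complement, Fcgr4 (0.77 ± 0.17) and the complement component gene C3 (0.59 ± 0.15) rose, beside the same 2.16%. With 1 library left out, the calls lost were those of Clec4e and Fcgr4 without WT 1, of Clec4e, Cd14, Fcgr4 and C3 without KO 1 and of Clec4e without KO 2.

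Ccr2, which guides these cells out of the marrow, fell in KO, at 1117, 868, 679 and 613 CPM (log2 change -0.58 ± 0.12, adjusted p = 0.00543), as did Hp, haptoglobin, at 371, 355, 218 and 259.9 CPM (-0.57 ± 0.13, adjusted p = 0.014). Of 19 chemoattractant receptor and adhesion genes, Fpr2 rose and Cx3cr1 and Ccr2 fell, beside 2.16% and 0.639% of all genes, and the median was 0.04. Ccr1 was at 427, 485, 437 and 486 CPM and did not pass. Of 27 classical monocyte genes tested, 3 rose (Irf8, Cd14 and Clec4e) and 2 fell (Ccr2 and Hp), beside 2.16% and 0.639% of all genes. Of 12 nonclassical markers, Cx3cr1 and Adgre4 fell and none rose, beside 0.639% and 2.16% of all genes. The 24 macrophage markers summed to 6149, 5908, 7477 and 6527 CPM. Of 21 tested 4 rose (Pf4, Spp1, Fcgr4 and Aif1) and Gpnmb fell, beside 2.16% and 0.639% of all genes. The part of the higher C1q of KO members in these was not tested. Leaving out 1 library ended the calls of Ccr2 without WT 1, of Hp without KO 1 and of Ccr2 without KO 2.

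Of 25 glycolysis and hypoxia genes 5 rose and none fell, beside 2.16% and 0.639% of all genes, with a median log2 change of 0.34: Pfkp, a phosphofructokinase (149, 149, 259 and 284 CPM, 0.90 ± 0.15, adjusted p = 0.000326), Vegfa, Bnip3, Pkm (0.48 ± 0.12) and Pgk1 (0.44 ± 0.12). Without WT 2, 8 of this list rose, without KO 1 or KO 2 3, and after thinning 1, while without WT 1 4 rose and 1 fell. Mitophagy genes gave 2 rises of 23, beside 2.16% of all genes, with a median of 0.11. These were Bnip3 (102, 89.2, 167 and 170.2 CPM, log2 change 0.85 ± 0.16, adjusted p = 0.00186) and Tax1bp1, an autophagy receptor (224, 238, 334 and 339 CPM, 0.58 ± 0.14, adjusted p = 0.0118). Without WT 1, KO 1 or KO 2 1 mitophagy gene rose, and after thinning none. Of 30 lysosome genes none rose or fell by edgeR, beside 2.16% and 0.639% of all genes, or by DESeq2. By edgeR 3 higher and 1 lower had an unadjusted p under 0.05, again with no share of all genes beside them. Of 19 cholesterol synthesis genes, Cyp51 fell (71.4, 96.9, 42.7 and 50.7 CPM, -0.80 ± 0.21, adjusted p = 0.0357), beside 0.639% of all genes, and the median was -0.03. Among 28 transcription factors, Id2 (209, 204, 363 and 401 CPM, 0.92 ± 0.14, adjusted p = 8.81e-05), Irf8, Egr2 (1.07 ± 0.28) and Nfkbia (0.49 ± 0.12) rose, beside 2.16% of all genes. Calls lost on leaving out 1 library were those of Pkm, Pgk1, Tax1bp1 and Nfkbia without WT 1, of Cyp51 and Egr2 without WT 2, of Pkm, Pgk1, Tax1bp1, Cyp51 and Nfkbia without KO 1 and of Pkm, Pgk1, Tax1bp1 and Nfkbia without KO 2.

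**Figure D4:**
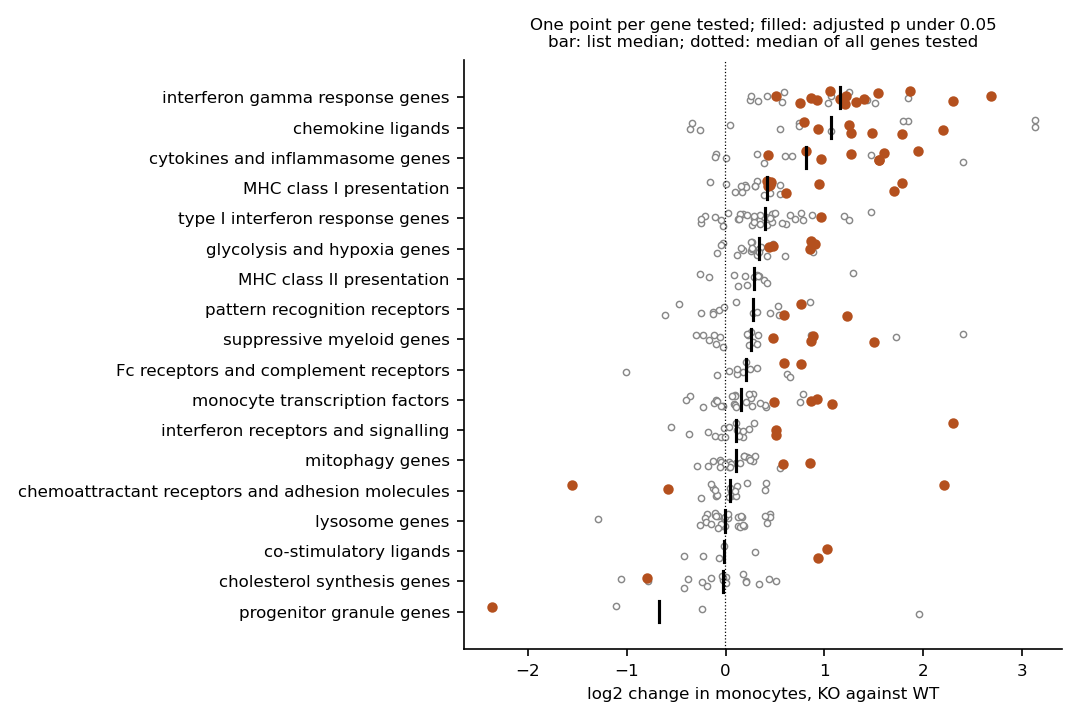
Log2 change of KO against WT in monocytes (horizontal axis) of each gene tested (points) in 18 lists, ordered by their median (bars); filled points passed an adjusted p of 0.05 and the dotted line is the median of all genes, -0.01. The interferon gamma list has the highest median, 1.15, and 14 filled points, all to the right of 0.

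Of the 80 genes named here for passing the threshold, 10 were called in all 18 alternatives to the analysis: Inhba, Iigp1, Socs1, Fpr2, Upp1, Cx3cr1, Il1rn, Cd274, Ly6i and Cd86. None of the 80 changed direction in any alternative that could test it. In counts simulated at this depth, the test recovered 46.9% of genes changed by 1 on the log2 scale and 95.7% of those changed by 2. The simulation gave every gene the same fixed spread, which was not estimated from these libraries. These rates therefore do not give the recovery in the real data.

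The change in monocytes was then set against that in C1q-high macrophages, the 16670 kept barcodes with at least 10 C1q UMIs per 10000 and no Ly6c2, Flt3, Cd3, Mki67 or Top2a. The same libraries supplied both populations. In macrophages 619 of 11918 genes rose (5.19%) and 340 fell (2.85%), together 8.05%. The macrophage sums held 32191935, 37931922, 44463261 and 29548873 UMIs, far more than the monocyte sums. Numbers of calls in the 2 populations therefore do not compare the size of their responses. An edgeR model with library as a block tested the difference of the changes over 11468 genes, and 108 were higher in monocytes (0.942%) and 115 lower (1.0%). Without the library block 7 genes were called, with Ifitm3, Ccdc88c and Ms4a4b among the 4 that were lower, and Pmepa1, P2ry10 and Pxdc1 higher. Without KO 1, 74 were called.

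Cholesterol synthesis genes changed differently in the 2 populations in the model with the library block. In macrophages 16 of 22 fell, beside 2.85% of all genes, and in monocytes, on far fewer UMIs, 1 of 19 did, beside 0.639%. The difference passed for 9 of 22, all toward monocytes, beside 0.942% of all genes, at a median of 0.99 on the log2 scale. Hmgcs1, an early enzyme of the pathway, was at 29.2, 50.4, 38.2 and 65.1 CPM in monocytes and at 79.0, 78.6, 31.1 and 41.2 CPM in macrophages (difference 1.53 ± 0.25, adjusted p = 2.43e-07). In monocytes Hmgcs1 overlapped between genotypes and did not pass, while in macrophages both KO libraries lay below both WT libraries. Glycolysis and hypoxia genes differed the same way for 10 of 26, beside 0.942% of all genes. Slc2a1, a glucose transporter, was at 161, 129.9, 203 and 193 CPM in monocytes and at 231, 205, 156 and 168 CPM in macrophages (difference 0.90 ± 0.16, adjusted p = 7.88e-06). Bnip3 gave a difference of 1.18 ± 0.17, adjusted p = 1.19e-09. Without the library block none of either list was called, and after thinning 2 cholesterol and 5 glycolysis genes were. Without KO 1, 3 cholesterol genes and 1 glycolysis gene were called, and without WT 2 6 cholesterol genes. For glycolysis the count was 5 without WT 1 or WT 2 and 3 without KO 2.

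Class I and interferon gamma genes differed the other way in that model. The difference was lower in monocytes for 12 of 23 class I genes, beside 1.0% of all genes, and higher for none, with a median of -0.46. H2-D1 was at 2270.3, 2365, 3115 and 3109 CPM in monocytes and at 1241, 1621, 3462 and 3044 CPM in macrophages (difference -0.75 ± 0.10, adjusted p = 3.42e-12), and WT monocytes had the higher level of the WT populations. Tap1, the peptide transporter, gave -0.84 ± 0.16, adjusted p = 1.48e-05. Of 29 interferon gamma genes, 9 were lower and Irf8 was higher, beside 1.0% and 0.942% of all genes. Ifitm3, an antiviral membrane protein gene, was flat at 4106, 4077, 4012 and 4102 CPM in monocytes and stood at 471, 564, 1418 and 1173 CPM in macrophages (difference -1.32 ± 0.10, adjusted p = 8.71e-39). After thinning, 3 class I and 3 interferon gamma genes were lower, and without the library block 1 interferon gamma gene and no class I gene was. Class I genes that were lower numbered 5 without WT 1, 4 without KO 1 and 5 without KO 2. Interferon gamma genes that were lower numbered 4 without WT 2 or KO 1 and 6 without KO 2, and 2 were higher without WT 2.

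With the library block, the change was higher in monocytes for 4 of 20 cytokine genes, beside 0.942% of all genes, and lower for none. Without the block it was higher for none. With the block kept, it was higher for 1 without KO 2, for 2 without KO 1, and for 2 with 1 lower without WT 1. Il1b was at 3928, 2718, 6803 and 5828 CPM in monocytes and at 1369, 1254, 1838 and 1569.5 CPM in macrophages (difference 0.59 ± 0.09, adjusted p = 8.61e-08), Il1rn gave 0.62 ± 0.14, adjusted p = 0.00101, Osm 0.69 ± 0.12, adjusted p = 3.22e-06 and Il1a 0.89 ± 0.25, adjusted p = 0.0287. Inhba was at 36.9, 54.5, 406 and 398 CPM in macrophages, and the difference of its changes, 0.38 ± 0.18, adjusted p = 0.422, did not pass. Ccr2 fell in both populations, less in monocytes (difference 0.73 ± 0.12, adjusted p = 2.39e-07), and was at 520.3, 401, 183 and 183 CPM in macrophages. Cx3cr1 was at 199.7, 194, 41.8 and 43.8 CPM there, with a difference of 0.62 ± 0.21, adjusted p = 0.138.

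Within each library, members were ranked by their share of Ly6c2 UMIs and split into 3 near-equal groups, low, middle and high, as a description, since the rule used Ly6c2. Classical monocyte genes increased from the low to the high group in every library, from 353 to 434 summed UMIs per 10000 in WT 1, from 349 to 448 in WT 2, from 303 to 424 in KO 1 and from 305 to 413 in KO 2. Type I interferon genes were also higher in the high than in the low group, from 57.1 to 109.7 per 10000 in KO 1, from 58.8 to 104.3 in KO 2, from 50.5 to 73.9 in WT 1 and from 66.8 to 81.7 in WT 2. Macrophage markers were highest in the low group in WT 1, KO 1 and KO 2, at 71.0, 89.0 and 87.9 per 10000, but not in WT 2. Interferon gamma genes were highest in the high group of each library, at 41.0, 68.9, 104.7 and 105.6 per 10000. All groups of the KO libraries, at 78.7 to 105.6 per 10000, exceeded all groups of the WT libraries, at 28.1 to 68.9. Neutrophil markers summed to 39.8 per 10000 in the high group of WT 2. Conventional dendritic cell markers summed to 30.3, 31.2, 59.9 and 61.1 per 10000 in the low groups. In the high groups they summed to 26.0, 50.4, 26.8 and 32.7.

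**Figure D5:**
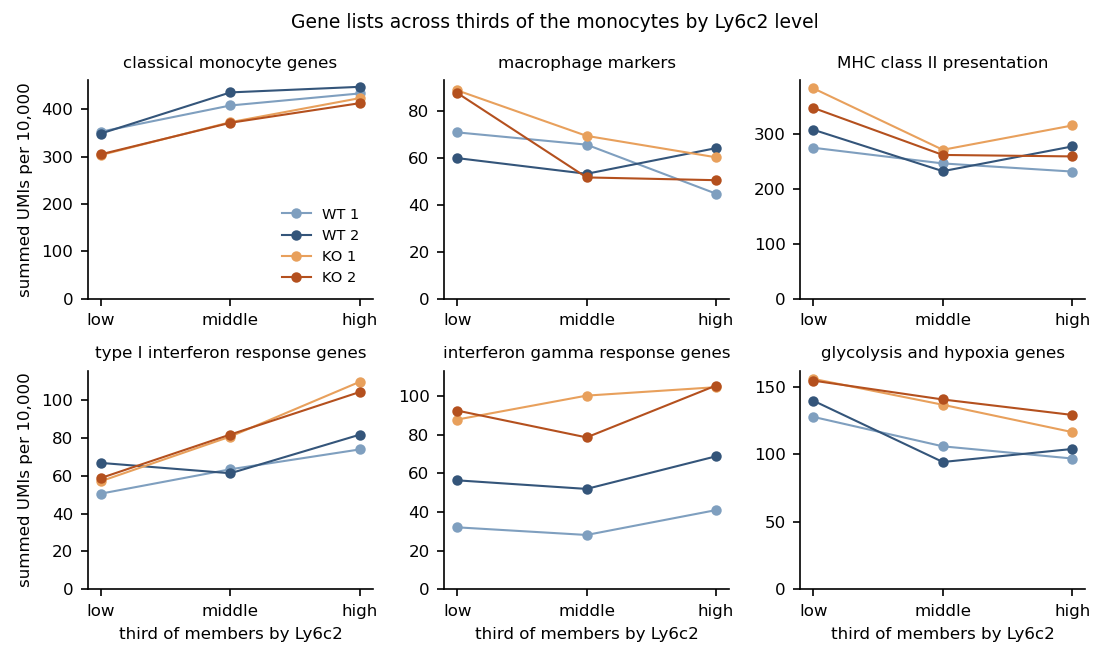
Summed UMIs per 10000 (vertical axis, from 0) of 6 gene lists in the 3 near-equal groups of each library's members with the lowest, middle and highest Ly6c2 share (horizontal axis), 1 line per library. Classical monocyte and type I interferon genes increase with Ly6c2 in the KO libraries, and for interferon gamma genes the KO lines lie above the WT lines throughout.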

How the data were processed

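Per the labels' protocols, CD45-positive cells of MC38 tumours of WT and Park2-/- mice were made into 10x Genomics 3′ v3.1 libraries, 2 per genotype. The deposited matrices hold UMI counts for 22620 genes, made by the authors with Cell Ranger (5.0.1 per the submitters' processing notes, 5.0.0 per the file headers) and the mm10 genome. Seurat 3.15 is named in the same notes. No value was normalized before deposit as far as the values show.

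From these counts, barcodes were kept from 200 genes upward and up to 20% mitochondrial UMIs, and the rule was applied to raw UMIs. UMIs were summed per library over members and over C1q-high macrophages. The sums were tested with edgeR 4.0.16 (quasi-likelihood, TMM scaling, filterByExpr, adjusted p under 0.05) in R 4.3.3, with DESeq2 1.42.0 as an alternative. The difference between the populations was fitted with library as a block. Scripts were tested on simulated data. Members and lists were chosen with earlier results of these data known. Values of some genes, the deleted gene included, are not reported here.

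Named were the 12 largest rises and falls past the threshold with libraries not overlapping and a mean of at least 20 CPM in the higher genotype, called members and up to 4 of the highest members of each list, and the 8 largest differences between populations in each direction. Predicted, mitochondrial, ribosomal and sex-linked genes and pseudogenes were left out of the rises, falls and differences. Scrublet (in scanpy 1.11.5) called 1, 0, 0 and 1 barcodes, so it did not work here, and cells with the highest scores were left out as an alternative. Alternatives covered scaling, the filter, UMI and C1q thresholds, thinning to 3000 UMIs, doublets, markers of other cells and leaving out each library.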

Additional observations from a re-analysis of the deposited data

Results flagged for a closer look

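Some genes had UMIs in the monocytes of 1 genotype and none in the other. KO members held 72 UMIs of Igkc, an immunoglobulin light chain gene, of which 59 lay in 1 cell of KO 1, and 26 of Kazald1, 35 of Rhbdd1, 19 of Ch25h, which encodes cholesterol 25-hydroxylase, and 43 of Tmeff1. WT members held 6 UMIs of Capns2. KO sums hold more UMIs than WT sums.

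The changes in monocytes and macrophages differed in the model with the library block for the following genes, as monocyte minus macrophage log2 change. Higher were Pxdc1 (4.39), the chemokine gene Ccl22 (3.88), the collagenase gene Mmp13 (3.14), Ccl24 (2.75), Pgf (2.38), P2ry10 (2.36), Tlnrd1 (1.81), Clip2 (1.67), Klrb1b (1.65), Hmgcs1 (1.53) and Cemip2 (1.52). Of the 277 Ccl24 UMIs of KO 2, 241 lay in 1 cell. Lower were Klrb1f (-7.56), Cxcr2 (-6.14), Cp (-5.44), Cd7 (-5.22), Dclk1 (-4.35), G0s2 (-4.32), Ackr3 (-4.07), Fbln2 (-3.62), Col3a1 (-3.36), Adgre4 (-3.24), Ccdc88c (-3.22), Ms4a4b (-2.94), Gpnmb (-2.77), Upp1 (-0.76), Msi2 (-1.43) and Tppp3 (-0.95).

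Pxdc1, P2ry10, Ccdc88c and Ms4a4b were also called without the library block. Several of the lower genes rested on 1 cell of WT 2, which held 29 of 30 Cp UMIs, 15 of 16 of Dclk1, 8 of 9 of Ackr3, 26 of 27 of Fbln2, 62 of 68 of Col3a1 or 8 of 9 of Cxcr2. The genes from Ccl24 to Cemip2 and from Fbln2 to Gpnmb in these lists were added after their values were seen, to include genes of at least 20 CPM.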

How the results depend on the processing

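Of 210 calls between the genotypes in monocytes, 162 higher and 48 lower, leaving out 1 library gave 144 to 317 (119 to 236 higher, 25 to 81 lower). Without the filter there were 390 (298 and 92), with DESeq2 88 (79 and 9), with stricter UMI thresholds 90 (79 and 11) and thinned to 3000 UMIs 49 (40 and 9). Leaving out cells with a UMI of another type's marker gave 31 lower. A replicate block gave 351 (254 and 97). Replicate numbers are not said to pair the libraries, and the deviations of like-numbered libraries from their genotype means had a correlation of -0.02. With 2 libraries per genotype this value cannot show whether the libraries were paired. Of 223 differences between populations (108 higher and 115 lower), leaving out 1 library gave 74 to 181 (30 to 88 higher, 44 to 93 lower). Without the library block 7 remained (3 and 4), with looser UMI thresholds 134 (65 and 69), with stricter ones 137 (62 lower) and thinned 84 (50 and 34). The difference turned positive for Cp (1.08), Dclk1 (6.43) and Fbln2 (8.15) with stricter thresholds, and for Fbln2 ranged from -4.79 to 7.97 on leaving out 1 library, the highest without WT 2. The rise in the share of monocytes, 1.40 percentage points, was 0.644 with C1q below 5 and 1.01 to 1.79 on leaving out 1 library. The cause of these changes was not tested. WT sums of 515869 and 616646 UMIs limit genes of low level. The self-test of the difference, on counts simulated with the same fixed spread for every gene, recovered 17% of genes changed by 1 on the log2 scale.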
